A study of Mus musculus with 3 samples.

Results

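The genes of the mitochondrial genome were taken as all genes whose symbol starts with mt-. There were 37 such genes among 55450 annotated genes on the reference chromosomes (GENCODE M21, mouse build mm10), of which 13 are mRNAs, 2 are ribosomal RNAs and 22 are transfer RNAs. Total RNA with ribosomal RNA depleted was sequenced from the cytosolic fraction of primary macrophages grown from C57BL/6J bone marrow. All 3 libraries belong to 1 group. Its cells received Lipid A, the lipopolysaccharide component that activates TLR4, at 100 ng/ml for 12 h, had it washed out for 12 h, and met 100 ng/ml Lipid A again for 20 min before harvest. No allele or transgene is named, sex and age were not collected, and no unstimulated, nuclear, whole-cell or mitochondrial fraction was analysed here. The values are therefore levels under a single condition. Biological replicate numbers are given in the labels but only a single donor identifier. Every SD over the 3 libraries therefore measures the spread between them, which may be technical. The p-values test differences between these libraries against counting noise alone.

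Mitochondrial DNA is a small circle present in many copies per cell. Both of its strands are transcribed by the polymerase Polrmt with the factor Tfam into long precursors, and the tRNAs that lie between most mRNAs and rRNAs are cut out to release them. Its mRNAs encode core subunits of complexes I, III and IV of the respiratory chain and of ATP synthase (complex V), and all other subunits of these complexes come from the nucleus. Macrophages stimulated through TLR4 are known for a shift from respiration towards glycolysis. Old insertions of mitochondrial DNA also lie in the nuclear chromosomes, where some are annotated as pseudogenes, and short reads cannot always be told apart between such a copy and the mitochondrial gene.

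The annotated nuclear copies were found by aligning every transcript to the mitochondrial genes, at 95% identity or more over at least 80% of the copy, which gave 11 pseudogenes. Of these, 7 lie side by side at chr1:24611535-24616197 on the minus strand and match 4136 of the 4653 bases between mitochondrial positions 6390 and 11042, from within mt-Co1 to within mt-Nd4. Gm28661 matched 681 of the 684 bases of mt-Co2, Gm10925 matched 678 of the 681 bases of mt-Atp6, Gm28437 matched 783 of the 784 bases of mt-Co3 and Gm10222 matched 294 of the 297 bases of mt-Nd4l, each at 100% identity. Gm28439 matched 876 of the 1378 bases of mt-Nd4 at 100% identity. Each copy was assigned to the mitochondrial gene it overlapped most. No annotated copy was assigned to mt-Nd1, mt-Atp8, mt-Nd6 or mt-Cytb, which are called mRNAs without a copy below. Gm10925, assigned to mt-Atp6, also spans the 43 bases that mt-Atp8 shares with mt-Atp6.

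The sequences that separate the mitochondrial genes from their copies show how few bases a read can be placed by. All are GENCODE M21 transcripts, written 5′ to 3′. Capitals in the end of mt-Co2 mark the 3 bases by which it is longer than Gm28661, and capitals in the other pairs mark bases that differ.
mt-Co2, bases 640 to 684: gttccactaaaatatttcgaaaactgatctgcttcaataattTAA
Gm28661, bases 640 to 681: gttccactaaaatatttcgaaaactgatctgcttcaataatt
mt-Nd3, bases 1 to 45: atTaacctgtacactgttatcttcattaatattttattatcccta
Gm28438, bases 1 to 45: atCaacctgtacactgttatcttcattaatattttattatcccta
mt-Co1, bases 1054 to 1098: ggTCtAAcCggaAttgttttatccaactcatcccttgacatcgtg
Gm29216, bases 1 to 45: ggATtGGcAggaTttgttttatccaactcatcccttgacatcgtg
Counted from the start of the mitochondrial transcript, T3C was the single substitution over the 345 aligned bases of mt-Nd3 and Gm28438. Between mt-Co1 and Gm29216 the substitutions were T1056A, C1057T, A1059G, A1060G, C1062A and A1066T, all within the first 45 bases of Gm29216.

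Members also overlap each other inside the mitochondrial genome. The mt-Atp8 transcript is shown whole because, at 204 nt, it is the shortest of the mRNAs and its level depended most on the effective length. Its capitals mark the 43 bases shared with mt-Atp6 on the same strand.
mt-Atp8, bases 1 to 204: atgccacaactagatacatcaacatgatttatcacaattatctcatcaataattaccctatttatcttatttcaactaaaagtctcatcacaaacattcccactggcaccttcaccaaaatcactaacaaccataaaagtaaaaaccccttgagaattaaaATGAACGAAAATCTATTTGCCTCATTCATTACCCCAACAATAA
On opposite strands, mt-Nd5 and mt-Nd6 share 14 bases and mt-Co1 and mt-Ts1 share 3 bases. The strand setting of the counting is not given in the sources used here, so reads from a gene and from its antisense partner could not be told apart. mt-Tp and mt-Te, the tRNAs with the highest counts in any single library, are also shown as the transcripts that were counted.
mt-Tp, bases 1 to 67: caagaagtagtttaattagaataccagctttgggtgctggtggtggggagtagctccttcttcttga
mt-Te, bases 1 to 69: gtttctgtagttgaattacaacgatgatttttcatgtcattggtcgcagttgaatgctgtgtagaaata

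Annotated genes held 32051208, 43611376 and 47857691 estimated counts in replicates 1, 2 and 3, and values of single libraries are given in that order throughout. All 10 macrophage markers were at 1 TPM or more in every library, with summed levels between 7086 and 8346 TPM. The threshold of 1 TPM was passed by 3 of 8 neutrophil, 1 of 6 B cell, 1 of 8 T and NK cell (Cd4) and 0 of 6 stromal and endothelial markers. Ly6g, a neutrophil marker, and the haemoglobin genes Hbb-bs and Hba-a1 had 0 counts. Of the other haemoglobin genes, Hba-a2 stood at 0.06, 0.08 and 0 TPM and Hbb-bt at 0.04, 0 and 0 TPM. TPM, the unit of level used for single genes, divides counts by the effective length of the RNA and scales each library to the same sum. The 7SL RNAs took up 59.3% ± 3.68 (SD, n = 3) of that sum, which lowers the TPM of every other gene.

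The 37 genes together received 108415, 110878 and 141908 counts, or 0.338%, 0.254% and 0.297% of all counts on annotated genes. The mean was 0.296% ± 0.0420 (SD, n = 3), and 0.407% ± 0.0532 once the counts of the 11 nuclear copies were added. Nearly all of it was mRNA, since the 2 rRNAs held 0.00195% ± 0.000855 of counts. In bulk RNA, the share of cells contributing, the number of mitochondria per cell and the RNA per mitochondrion cannot be told apart. How much mitochondrial RNA the cytosolic preparation retained was not tested.

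Both rRNAs, which form the RNA cores of the mitochondrial ribosome, were among the lowest of the longer members in these rRNA-depleted libraries. mt-Rnr1 (the small subunit RNA, chrM:70-1024) stood at 12.3, 3.67 and 7.25 TPM on 443, 215 and 441 counts. mt-Rnr2 (the large subunit RNA, chrM:1094-2675) stood at 6.43, 2.19 and 4.93 TPM on 434, 239 and 557 counts. Replicate 1 was highest and replicate 2 lowest for both. Every mRNA apart from mt-Co2 had a higher mean TPM than either rRNA.

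**Figure D1:**
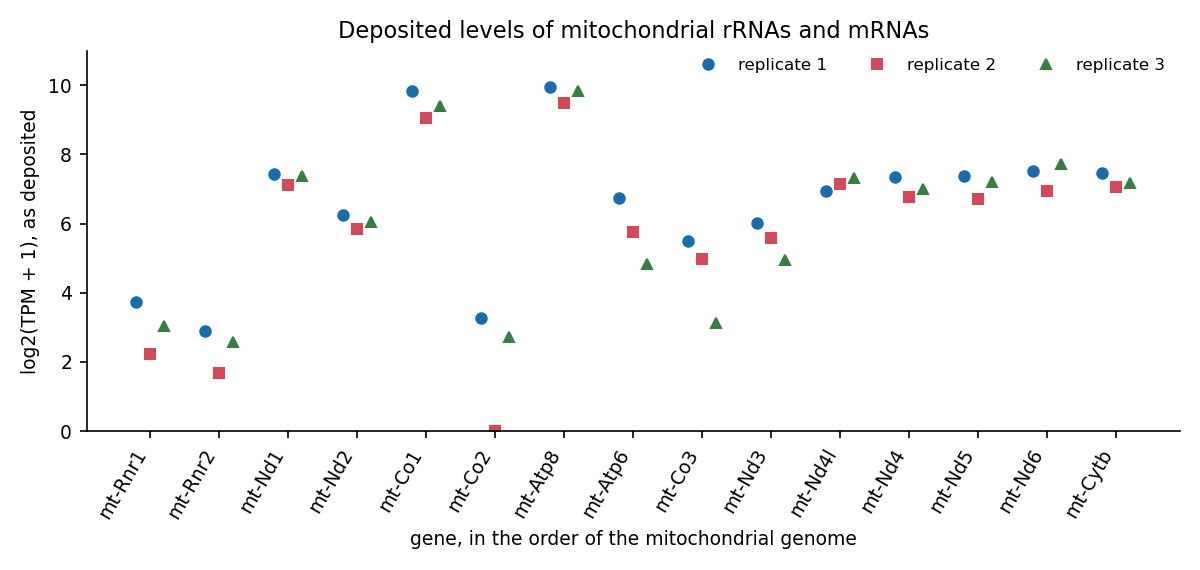
Deposited levels of the 2 rRNAs and 13 mRNAs in each library, as log2(TPM + 1), in the order of the mitochondrial genome; each point is 1 library. mt-Co1 and mt-Atp8 lie highest, and mt-Co2 lies at 0 in replicate 2.

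Complex I, which takes electrons from NADH, has 7 subunits from the mitochondrial genome, and 4 of their genes lie outside the sequence matched by the chromosome 1 block. mt-Nd1 (chrM:2751-3707) stood at 171, 137 and 165 TPM, and mt-Nd5 (chrM:11742-13565) at 166, 104 and 147 TPM. mt-Nd2 (chrM:3914-4951) was lower, at 75.3, 56.8 and 65.1 TPM. Its highest library was below the lowest of mt-Nd1 and mt-Nd5. mt-Nd6 (chrM:13552-14070), the single mRNA encoded on the minus strand, stood at 183, 122 and 209 TPM. Its range overlapped that of mt-Nd1, so no difference in level between the strands could be read from these 2 mRNAs. mt-Cytb (chrM:14145-15288), which encodes the mitochondrial subunit of complex III, stood at 175, 132 and 144 TPM.

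The complex I subunits inside the block were mt-Nd3, mt-Nd4l and mt-Nd4. mt-Nd4 (chrM:10167-11544), of which the copy covers 63.6%, stood at 162, 109 and 126 TPM. mt-Nd4l (chrM:9877-10173) stood at 123, 142 and 159.5 TPM, and mt-Nd3 (chrM:9459-9806) at 64.3, 47.4 and 29.6 TPM. As deposited, the libraries did not rank alike, since replicate 1 was the lowest for mt-Nd4l and the highest for mt-Nd3. Once the counts of their copies were added, mt-Nd4l stood at 274, 209 and 282 and mt-Nd3 at 143, 120 and 143 on the TPM scale. Replicate 2 was then the lowest for both.

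Complex IV, cytochrome c oxidase, has 3 subunits from the mitochondrial genome, and their deposited levels lay far apart. mt-Co1 (chrM:5328-6872), the subunit with the site of oxygen reduction, stood at 906, 535 and 673 TPM. mt-Co3 (chrM:8607-9390) stood at 44.3, 30.7 and 7.75 TPM, and mt-Co2 (chrM:7013-7696), which takes electrons from cytochrome c, at 8.58, 0 and 5.60 TPM. The ranges of mt-Co1 and the other two did not overlap. mt-Co2 was listed at 0 in replicate 2, although its nuclear copy Gm28661 held 452 TPM there.

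Complex V has 2 mitochondrial subunits, both in its membrane part. mt-Atp8 (chrM:7766-7969) stood at 979, 716 and 915 TPM and mt-Atp6 (chrM:7927-8607), which lines the proton path, at 107, 53.0 and 27.6 TPM. mt-Atp8 was thus the highest of all members by its mean of 870.2 ± 137 TPM (SD, n = 3), on only 998, 1233 and 1498 counts. mt-Co1 had 59531, 56668 and 73975 counts, or 53.1% ± 2.08 of the counts of the 13 mRNAs. In order of mean TPM over the 15 longer members, neighbours differed by more than 1 SD of their log2 difference over the libraries in 5 of 14 steps, those from mt-Atp8 to mt-Co1, mt-Co1 to mt-Nd6, mt-Nd4 to mt-Nd2, mt-Nd3 to mt-Co3 and mt-Co3 to mt-Rnr1.

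The authors deposited a second quantification of the same reads, and it placed the ambiguous reads elsewhere. For each mRNA with a copy, the counts of the gene and its copies were added and the share given to the mitochondrial gene was computed. For mt-Co2 that share was 1.23%, 0% and 1.19% in the first quantification and 9.76%, 4.44% and 6.77% in the second. Both methods gave nearly all of these reads to Gm28661. mt-Atp6 received 24.3%, 17.6% and 9.76% in the first and 93.1%, 97.3% and 98.9% in the second. mt-Co3 received 9.36%, 8.99% and 2.00% in the first and 47.9%, 28.8% and 38.6% in the second. For mt-Atp6 and mt-Co3 every library of the second quantification was above every library of the first.

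mt-Nd3 received 45.1%, 39.5% and 20.8% of its pooled reads in the first quantification and 82.6%, 40.7% and 73.3% in the second. These ranges overlapped, but within each library the second was the higher, by little in replicate 2. mt-Nd4l received 44.99%, 67.8% and 56.5% in the first and 100% in every library of the second. mt-Co1 has a copy of its last part in the block (Gm29216) and a copy of its whole length on chromosome 2 (Gm13340, 97.6% identical). It received 94.5% ± 1.24 and 92.9% ± 2.39 in the 2 quantifications (SD, n = 3). mt-Nd4, with a partial copy, received 100% in every library of the first and between 92.3% and 100% in the second. mt-Nd2 and mt-Nd5, whose copies on chromosomes 2 and 13 are 96.7% and 95.2% identical to them, kept 100% in both.

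**Figure D2:**
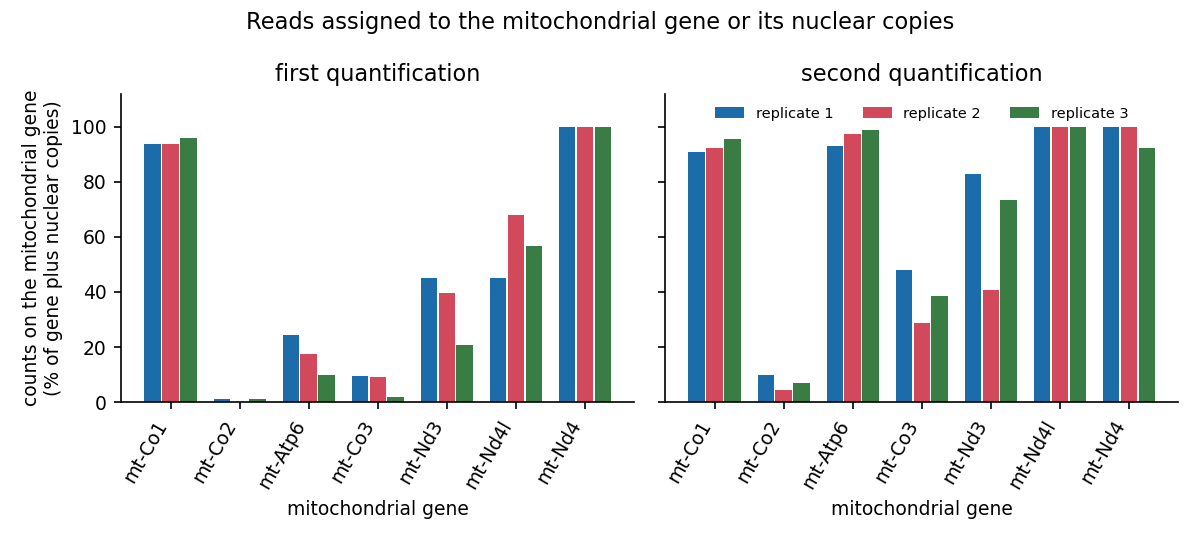
Share of the counts of each gene and its nuclear copies that was assigned to the mitochondrial gene, in percent, for the 7 mRNAs matching the chromosome 1 block; bars are single libraries. In the first quantification mt-Atp6 and mt-Co3 hold at most 24.3%, in the second mt-Atp6 holds at least 93.1%, and mt-Co2 holds at most 9.76% in both.

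While the division of reads differed, their sum differed much less. The pooled counts of mt-Co2 and its copies were 15710, 16570 and 18112 in the first quantification and 16444, 17110 and 18726 in the second. The second exceeded the first by factors between 1.03 and 1.05 for mt-Co2, between 1.05 and 1.07 for mt-Atp6, and between 1.03 and 1.05 for mt-Co3. For mt-Nd1, which has no copy, the factor was between 1.04 and 1.07. mt-Nd4l was further apart, with factors of 1.34, 1.27 and 1.21.

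The first quantification also carries its own statement of doubt, a posterior mean count with a posterior SD, per the file headers. For mt-Co2 the posterior means were 1357, 2326 and 2334 counts with SDs of 752, 988 and 889, whereas the deposited counts were 194, 0 and 215. For mt-Co3 they were 4738, 5948 and 7504 counts with SDs of 1556, 1232 and 1999, against deposited counts of 1222, 1379 and 361. The point level lay below the authors' own TPM interval for mt-Co3 in all 3 libraries and for mt-Co2 in replicates 2 and 3. It lay above that interval for mt-Co1 in all 3 libraries, and for mt-Nd1, mt-Nd4, mt-Nd5 and mt-Cytb in replicate 1, where mt-Cytb was at 175 TPM with an upper bound of 174 TPM. A point outside the interval was therefore not limited to genes whose reads were divided. The posterior SD of the count of mt-Cytb, which has no copy, was 0 in every library.

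A level that does not depend on this division was obtained by dividing the pooled counts of a gene and its copies by the effective length of the mitochondrial gene, on the TPM scale. It cannot tell which genome the reads came from. On this scale mt-Co2 stood at 697, 449.5 and 473, mt-Co3 at 474, 342 and 387, and mt-Atp6 at 439, 302 and 283. All 3 were then above mt-Nd1 in every library. Relative to mt-Nd1, the first quantification gave mt-Co2 a deposited level of 0.0281 ± 0.0257 and a combined level of 3.41 ± 0.618, and the second gave 0.244 ± 0.132 and 3.38 ± 0.609 (SD, n = 3).

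With copies added, the 2 quantifications gave like levels relative to mt-Nd1 for mt-Co1 (4.70 ± 0.843 and 4.93 ± 0.854), mt-Co3 (2.54 ± 0.219 and 2.51 ± 0.207) and mt-Atp6 (2.16 ± 0.432 and 2.19 ± 0.432). mt-Nd4l stood at 1.62 times mt-Nd1 in both, and mt-Nd2 at 0.417 and 0.418. The mean ratios of the quantifications differed by at most 1.08-fold (mt-Nd3) over the mRNAs other than mt-Atp8, where the deposited levels had differed by up to 8.68-fold (mt-Co2). Both quantifications count the same reads, so this likeness follows largely from adding the copies. It is no independent check of the combined levels. For mt-Nd4l the effective length entered as well. Its pooled counts were 1.34, 1.27 and 1.21 times as high in the second, and its effective length 1.19 times as long.

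mt-Atp8, to which no annotated copy was assigned, was the exception, at 5.51 ± 0.254 times mt-Nd1 in the first quantification and 2.52 ± 0.0663 in the second. Its counts were close, at 998, 1233 and 1498 in the first and 1113, 1334 and 1632 in the second. Its effective length was 20.5 nt on average in the first and 46.0 nt in the second, a ratio of 2.25 ± 0.0916. For mt-Nd1 that ratio was 0.989 ± 0.0152. With copies added, mt-Atp8 stood at the top of the order in the first quantification alone. In the second, with copies added, it was below mt-Co1 and mt-Co2 in every library and did not differ from mt-Co3 or mt-Atp6 beyond the spread between libraries.

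**Figure D3:**
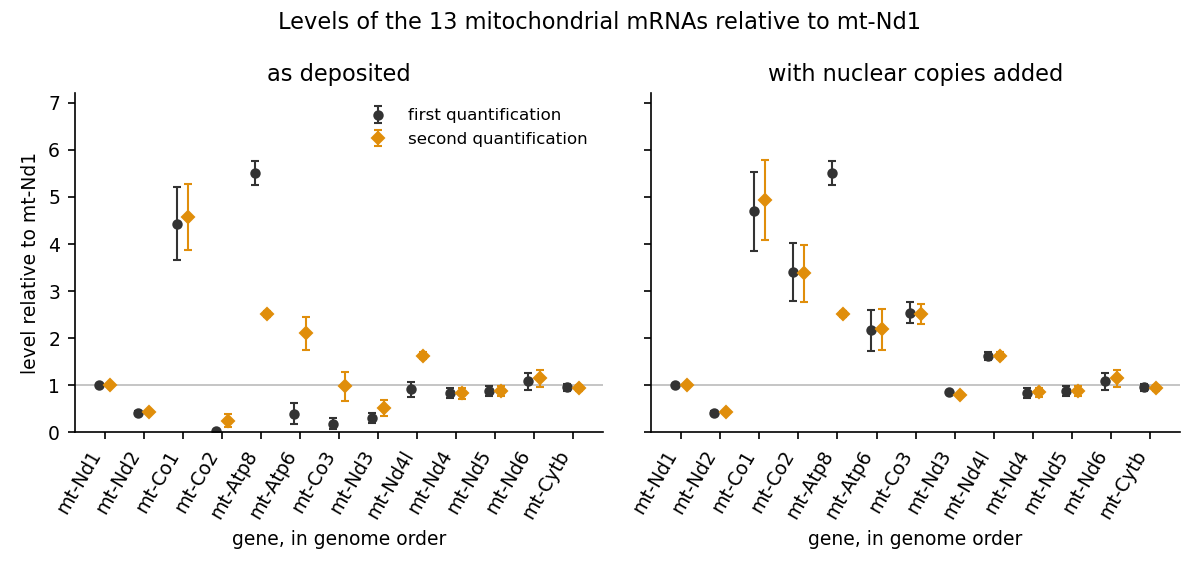
Level of each mRNA divided by that of mt-Nd1, as deposited (left) and with the counts of nuclear copies added (right); points are means and bars the SD over 3 libraries, for both quantifications. With copies added the quantifications lie together for every gene except mt-Atp8, at 5.51 and 2.52.

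In the order of combined levels, 7 of 12 neighbouring steps were larger than 1 SD in the first quantification and 5 of 12 in the second. In both, mt-Co1 was above mt-Co2, mt-Co2 above mt-Co3, mt-Atp6 above mt-Nd4l, and mt-Nd4l above mt-Nd6 by more than that spread. mt-Nd6, mt-Nd1, mt-Cytb, mt-Nd5, mt-Nd3 and mt-Nd4 followed without a step beyond it, with means between 132 and 171 in the first. mt-Nd2 was last in both, at 65.7 ± 9.29 in the first. By pooled counts, which favour long mRNAs, the 3 subunits of complex IV made up 60.5% ± 1.88, the 7 of complex I 26.5% ± 2.02, the 2 of complex V 7.22% ± 0.765 and mt-Cytb 5.82% ± 0.443 of the mRNA counts.

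Of the 15 longer members, which have an effective length in both quantifications, 2 differed at least 2-fold between the deposited TPM values in every library, beside 8.59% of 10134 such genes at a mean of 1 TPM or more in either. mt-Atp8 was higher in the first, as were 7.09% of all genes, and mt-Co2 in the second, as were 1.51% of all genes. With TPM rescaled over protein-coding genes, 4 of 15 members passed, beside 9.52% of 13163 genes. mt-Atp8 was again higher in the first (2.08% of all genes), and mt-Co2, mt-Atp6 and mt-Co3 were higher in the second (7.44% of all genes). Counted over every member at a mean of 1 TPM in either quantification, 9 of 22 passed on the deposited scale (9.65% of 10308 genes). Of those 9, mt-Tm, mt-Tn, mt-Tc, mt-Ty, mt-Ts1, mt-Te and mt-Tp had no length in the first, so that their call was fixed, and nothing is read from this larger count.

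The tRNAs, between 59 and 75 nt long, had an effective length of 0 and 0 counts in every library of the first quantification. A 0 there is therefore no measurement of their level. The second quantification gave all 22 together 185, 142 and 127 counts. Of these, 176, 134 and 120 fell on the 8 tRNAs of the minus strand, or 94.7% ± 0.413 (SD, n = 3), although 14 of the 22 tRNAs and 12 of the 13 mRNAs lie on the plus strand. Counts were present in all 3 libraries for 7 of the 8 tRNAs on the minus strand and for 1 of the 14 on the plus strand, mt-Tm.

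mt-Tp, the proline tRNA (chrM:15356-15422), held the largest number of these counts, with 86, 78 and 75. mt-Te, the glutamate tRNA next to mt-Nd6 (chrM:14071-14139), had 39, 5 and 8 counts, so its value rested on replicate 1. mt-Ts1, a serine tRNA, had 20, 20 and 14 counts. mt-Tp was above every other tRNA in each library. On the plus strand no tRNA exceeded 5 counts in any library, and mt-Ti, mt-Td, mt-Tk, mt-Tr and mt-Tl2 had 0 in all, which allows up to 3 counts per library by counting error only. The reads were not shown to be mature tRNAs, since uncut precursors carry the same sequence. The strand is that of the annotated gene, and with the strand setting not given, the strand of the reads could not be told. The size range that the labels give for the libraries lies far above the length of a tRNA, so none of these counts is a tRNA level.

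**Figure D4:**
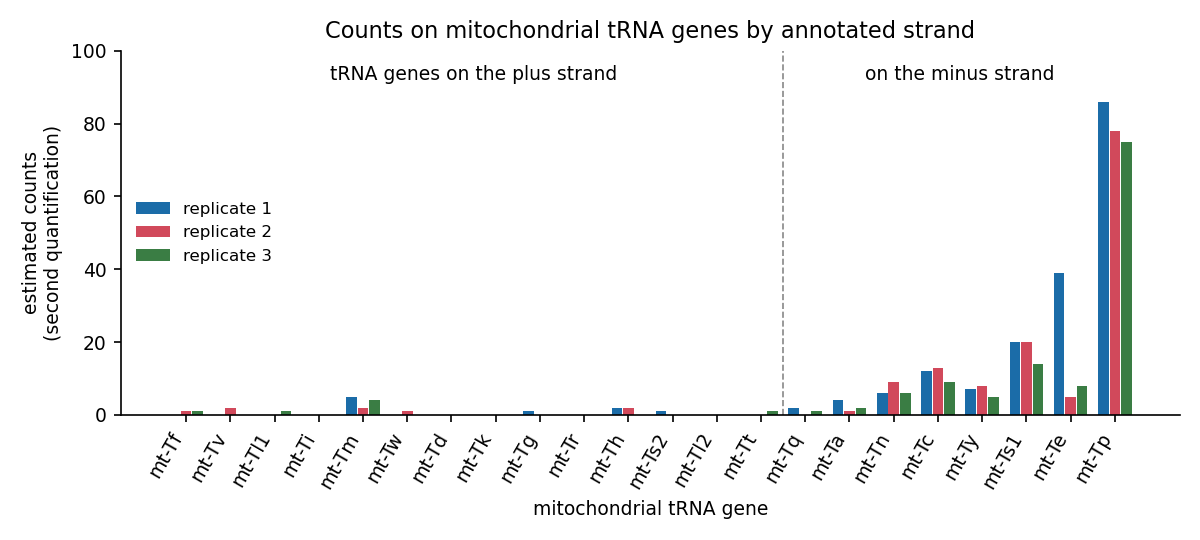
Estimated counts on the 22 mitochondrial tRNA genes in the second quantification, by annotated strand, with 1 bar per library. Nearly all counts lie on genes annotated on the minus strand, led by mt-Tp at 75 to 86, and no gene on the plus strand exceeds 5. The strand of the reads themselves is not known.

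Variation between the libraries was examined next, with CPM, counts scaled to a common library total with the TMM factors of edgeR. The edgeR likelihood-ratio test against counting noise alone called all 14 members it tested, beside 71.1% of 12362 genes. mt-Co2 failed the filter on low counts. This test says nothing of the stimulus, and it reached its threshold for differences as small as those of mt-Nd1 (199, 181 and 208 CPM, adjusted p = 2.34e-18) and mt-Atp8 (32.1, 27.8 and 31.0 CPM, adjusted p = 0.00284, edgeR with Benjamini-Hochberg adjustment). The highest library exceeded the lowest 1.15-fold for both.

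mt-Co3 and mt-Atp6, most of whose pooled reads were assigned to a copy, had the widest spread of the tested members. The highest library exceeded the lowest 5.26-fold for mt-Co3 and 3.55-fold for mt-Atp6 as deposited, but 1.21-fold and 1.42-fold with copies added. The median SD of log2(CPM + 1) was 0.29 over the 8 tested mRNAs with a copy, 0.18 for the same genes with copies added, and 0.11 over the 4 without a copy. The groups overlapped, since mt-Nd6, without a copy, had an SD of 0.34, and mt-Nd2, with a copy but all of its pooled reads, had 0.11. Over all genes tested the median was 0.15. The rRNAs lay between, with SDs of 0.69 for mt-Rnr1 and 0.65 for mt-Rnr2, below mt-Atp6 at 0.89 and above every other tested mRNA except mt-Co3 at 1.22.

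With copies added, replicate 2 was the lowest library for 11 of the 13 mRNAs and the highest for none. On this CPM scale mt-Atp6 was lowest in replicate 3 and mt-Nd3 in replicate 1. Of 71 nuclear-encoded subunits of the same complexes, 51 were highest in replicate 2 and 2 lowest there. Over all genes tested, 35.1% were highest and 30.7% lowest in replicate 2. The median deviation from a gene's own mean in replicate 2 was -0.13 for the mitochondrial mRNAs and 0.12 for the nuclear-encoded subunits, on the log2 scale. Malat1 and Neat1, RNAs kept in the nucleus, were also lowest in replicate 2, at 3804, 833 and 4150 CPM and at 219, 79.4 and 299 CPM. Their part in this result was not tested. Genes of a list share the library and its scaling, so these counts describe 3 libraries and are not repeated observations.

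**Figure D5:**
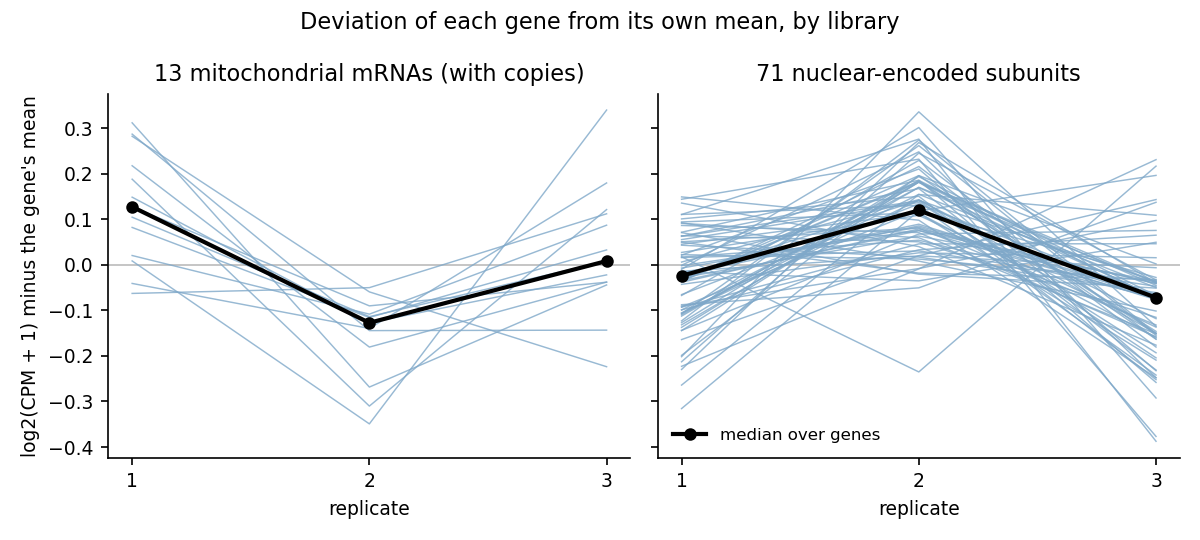
Deviation of each gene's log2(CPM + 1) from its mean over the 3 libraries, for the 13 mitochondrial mRNAs with copies added (left) and 71 nuclear-encoded subunits (right); thin lines are genes, black points the median, and the replicates have no order. In replicate 2 the medians are -0.13 and 0.12.

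Nuclear and mitochondrial subunits of the same complexes were then compared by TPM. No nuclear-encoded subunit of the 71 fell under 1 TPM in any library, and their median was 49.1 ± 4.43 TPM (SD, n = 3). The median of the 13 mitochondrial mRNAs exceeded it by 1.62, 1.08 and 1.69 on the log2(TPM + 1) scale, and by 1.79, 1.41 and 2.22 with copies added. It was higher in all 3 libraries on both scales. How much mitochondrial RNA the cytosolic preparation retained was not tested, so these differences do not give relative levels in whole cells.

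By complex, the 7 mitochondrial subunits of complex I had a median of 139 ± 27.8 TPM and the 36 nuclear ones 31.8 ± 2.08 TPM. Those nuclear subunits ran from Ndufb4 at 8.25 ± 1.87 to Ndufb8 at 81.1 ± 4.12 TPM, both accessory subunits of the membrane arm. For complex III, mt-Cytb exceeded the median of the 9 nuclear subunits by 1.22 ± 0.22 on the log2(TPM + 1) scale. These 9 ran from Cyc1 (cytochrome c1) at 18.7 ± 1.61 to Uqcrh at 106 ± 8.66 TPM. For complex V, the mitochondrial median was above that of the 15 nuclear subunits by 1.65 ± 0.33 as deposited and by 2.95 ± 0.17 with copies added. With only 2 mitochondrial subunits, the deposited median rested on mt-Atp8, whose level depended on the effective length. mt-Atp6 as deposited, at 107, 53.0 and 27.6 TPM, was below the nuclear median of 79.3, 67.8 and 60.25 TPM in replicates 2 and 3. With copies added, at 439, 302 and 283, it was above that median in every library. Atp5b, the catalytic beta subunit, was the highest of the 15 at 242 ± 25.3 TPM and Atp5g1 the lowest at 28.2 ± 2.85 TPM.

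Complex IV was the one complex where the direction of the median difference turned. Its 11 nuclear subunits had a median of 122 ± 7.70 TPM, between Cox7b at 30.8 ± 6.72 and Cox4i1 at 189 ± 13.2 TPM. The deposited median of the 3 mitochondrial subunits was below it, with differences of -1.53, -1.93 and -3.73 on the log2(TPM + 1) scale. With only 3 subunits, this deposited median was the level of mt-Co3 in every library. mt-Co1 as deposited, at 906, 535 and 673 TPM, was above all 11 nuclear subunits. With copies added the differences of the medians were 2.41, 1.90 and 2.03. Every library changed sign, and the second quantification as deposited gave a mean of 0.26 ± 0.53, within its own spread of 0.

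Genes that act on the mitochondrial genome had lower group medians than the nuclear subunits, at 3.12 ± 0.168 TPM for transcription, 2.36 ± 0.247 for replication and 5.52 ± 0.598 for RNA processing and stability. Of the transcription genes, 8 of 10 were at 1 TPM or more in every library, with Tfam, which packages and activates mitochondrial DNA, at 7.63, 5.28 and 3.97 TPM. Mterf3 stood at 5.29 ± 1.53 and Mterf2 at 0.0433 TPM on average. Of the replication genes 4 of 7 reached 1 TPM in every library, among them the single-strand binding protein Ssbp1 at 9.08 ± 1.03 and the polymerase Polg at 3.92 ± 0.547 TPM, while its accessory subunit Polg2 stood at 0.89 ± 0.21 TPM. All 21 genes of RNA processing and stability did so. The highest of these were Slirp, which binds and stabilises mitochondrial mRNAs, at 38.9 ± 10.5 and the exonuclease Rexo2 at 21.2 ± 3.48 TPM, and the lowest was Fastkd1 at 1.57 ± 0.0265 TPM. Counting noise was exceeded (edgeR, adjusted as above) by 4 of 9 tested transcription genes, 4 of 7 replication genes and 13 of 21 RNA processing genes, beside 61 of 71 nuclear subunits and 71.1% of all genes.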

How the data were processed

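The study's 3 libraries form 1 group, so no comparison between groups was made. Expected counts, TPM, effective lengths and posterior counts are as deposited in gene tables whose headers follow RSEM. Estimated counts and TPM of the second quantification are as deposited in transcript tables whose headers follow kallisto, and were summed per gene here. The authors made all tables on mm10 with GENCODE M21, the first from transcriptome alignments and the second from the reads, per the text deposited with them. No source used here names the programs, their versions or the strand setting. The 86 annotated genes on scaffolds were left out.

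Nuclear copies were found with blastn 2.17.0 (E-value at most 1e-05) against the mitochondrial transcripts joined by position, which leave 57 bases between members uncovered. A 0 count was read against a limit of 3 counts. Expected counts were rounded to whole numbers for edgeR 4.0.16 in R 4.3.3 (filterByExpr, TMM, dispersion 0, likelihood-ratio test over libraries, Benjamini-Hochberg adjustment over all genes tested, called under 0.05). With 1 group and each library as its own level, there is no contrast for a quasi-likelihood test. Tested on simulated counts of 12859 genes, it recovered, of 50 genes changed by each factor, 56% for 1.25, 78% for 1.5, 92% for 2 and 98% for 4. It also called 10 genes that had not been changed. The 2-fold rule between quantifications required the same direction in all libraries and, in at least 1 quantification, a mean of 1 TPM. Python 3.11.15 with pandas 2.3.3 and numpy 2.4.6 did the rest, with a pseudocount of 1 on log scales. All members were named. Of each nuclear list, the highest and lowest genes per group were named, and for the genes acting on the mitochondrial genome the 2 highest and the lowest. The members and all lists were chosen with earlier results of these data known. Alternatives changed the filter, scaling, pseudocount, fold and quantification, and left out each library. Adding the copies to levels and to the edgeR fit, and limiting the 2-fold rule to genes with an effective length in the first quantification, were chosen after seeing the data. The erythroid marker list is not reported here as a whole.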

Additional observations from a re-analysis of the deposited data

How the results depend on the processing

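The mitochondrial share of counts kept within its spread without 7SL genes, over coding counts and in the second quantification, and was 0.407% with copies added. The share of TPM was 0.269%, 0.139% in the second quantification and 0.659% without 7SL genes. The median of the 13 mRNAs was 138 TPM, 71.1 in the second quantification, 471 rescaled over coding genes and 176 with copies added by either way of adding them. Of members with a length in both quantifications, 2 differed 2-fold, beside 8.59% of such genes. After rescaling over coding genes 4 did, beside 9.52%. At 1.5-fold 11 differed, and the share of all genes was not computed at that fold. mt-Nd1, which has no copy, was 2.10, 1.87 and 2.40 times as high in the first as in the second. Over all members the counts were 9 at 2-fold, beside 9.65% of genes, and 18 at 1.5-fold, tRNAs without a value in the first included. Nothing is read from the counts at 1.5-fold. The median SD of log2 levels was 0.28, and 0.16 with copies added. The difference from nuclear subunits was 1.46, 1.04 by means and 1.80 with copies added. For complex IV it reversed from -2.40 to 0.26 in the second quantification and 2.11 with copies added. In all of these the cause was not tested beyond what the construction shows.

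Leaving out each library gave 0.275% to 0.317% of counts, 0.244% to 0.294% of TPM, medians of 126 to 153 TPM, differences from nuclear subunits of 1.35 to 1.65, and 13 to 14 members beyond counting noise. Members with a length in both that differed 2-fold numbered 2 to 9, with 3 without replicate 1 and 9 without replicate 2, and over all members 9 to 17, the 17 without replicate 2. The share of all genes was not computed with a library left out, so nothing is read from these counts. The first quantification was 2.10, 1.87 and 2.40 times the second for mt-Nd1, under 2-fold in replicate 2 only. Without replicate 1 the mean of mt-Co2 went from 4.73 to 2.80 TPM and that of mt-Atp6 from 62.5 to 40.3 TPM. Counts on tRNAs and rRNAs limit what can be read of them. No paired analysis was possible because there is 1 group.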
